A study of Mus musculus with 12 samples.

Results

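The genes described here mark the macrophages that engulf debris and handle its lipid during muscle repair: Gpnmb, Trem2, Tyrobp, Msr1, Apoe, Fabp5, Lgals3, Spp1, Ms4a6d and Ms4a7. Of these 10 genes, 9 had a transcript cluster (the set of array probes for 1 gene) whose only gene symbol was their own, among 19752 such genes on the array, and Spp1 had none and is named only. Where a gene had several clusters, the one with the highest mean over the arrays was used; this applied to Fabp5 alone. The members were chosen by a reading of earlier results of these arrays, above all the log2 change between amphiregulin and saline at day 4, so that comparison is given for these genes as a description and not as independent evidence.

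RNA came from whole tibialis anterior muscle of 8-week-old C57BL/6 mice and was measured on 12 arrays in 4 groups of 3. Cardiotoxin, a snake venom toxin that destroys fibres and so sets off regeneration, had been injected into the muscle, and every mouse was treated with diphtheria toxin from the day of injury. The first group received amphiregulin (AREG), a ligand of the epidermal growth factor receptor, and was Foxp3-DTR- (without the toxin receptor, so that the toxin leaves regulatory T (Treg) cells in place) and taken at day 4. The group set against it received phosphate-buffered saline (PBS) at day 4 and was also Foxp3-DTR-. The other pair, AREG and PBS at day 8, was Foxp3-DTR+: there the diphtheria toxin receptor is driven from Foxp3, the factor that defines Treg cells, and the toxin is meant to deplete them. Day and genotype thus changed together, and their contributions cannot be told apart. AREG was given into the muscle on the day of injury and into the abdomen every other day, with PBS given the same way. Whether every array holds a different animal is not stated in the labels. The p-values therefore measure the spread between these samples, which may be technical, and with 3 arrays a group the precision is limited.

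After injury, monocytes enter the muscle, become macrophages, engulf dead fibres and then support regeneration. TREM2 is a surface receptor for lipids and lipoproteins that signals through the adaptor TYROBP (DAP12), MSR1 is a scavenger receptor for modified lipoproteins, and apolipoprotein E and the fatty acid binding protein FABP5 carry lipid outside and inside the cell. GPNMB is a membrane glycoprotein of phagosomes and lysosomes, galectin-3 (Lgals3) binds glycans and is recruited to damaged lysosomes, and the MS4A proteins are four-pass membrane proteins, several of which are found in myeloid cells.

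The tissue and the cell type were checked against marker lists. The mean log2 intensity of 14 genes of mature muscle fibres lay between 12.99 and 13.11 in the AREG group of day 4 and between 12.81 and 12.94 in its PBS group, and between 13.08 and 13.09 in the AREG group of day 8 and between 13.02 and 13.08 in its PBS group. Of 20 pan-macrophage genes (among them Adgre1, Csf1r and Cd68), 17 were brighter than the median gene, and their mean log2 intensity was 8.22, 8.65 and 8.28 with AREG at day 4 against 9.31, 9.67 and 9.61 with PBS. At day 8 it was 9.56, 9.12 and 8.20 with AREG against 9.39, 9.29 and 9.82 with PBS. Of 13 neutrophil genes, 0 were. In whole muscle, fewer macrophages and less RNA per macrophage cannot be told apart, and several of these genes, such as Apoe, Fabp5 and Lgals3, are also transcribed outside macrophages. Foxp3 averaged 6.66 and 6.55 on the log2 scale in the AREG and PBS groups of day 8 and 6.61 and 6.57 in those of day 4, below the median level of all genes (7.15), so these values do not show the depletion.

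RefSeq promoter windows (assembly GRCm38.p6, from 250 bases before to 50 bases after a gene start) were found for 5 of the 9 measured genes, namely Gpnmb, Trem2, Apoe, Lgals3 and Ms4a7, with 8 windows in all since Apoe has several starts and Ms4a7 as well. They are shown because the 9 measured genes were all lower with AREG than with PBS at day 4, the comparison they were chosen on. Both strands were searched for TGANTCA (N is any base, a loose pattern that takes in AP-1 sites), CACGTG and CATGTG (E-boxes, bound among others by factors of the MITF family) and GAGGAA (the core of PU.1 and related ETS factors). The matches did not overlap in the windows printed, and the capitals mark them.
Gpnmb, chr6:49036268-49036567, plus strand: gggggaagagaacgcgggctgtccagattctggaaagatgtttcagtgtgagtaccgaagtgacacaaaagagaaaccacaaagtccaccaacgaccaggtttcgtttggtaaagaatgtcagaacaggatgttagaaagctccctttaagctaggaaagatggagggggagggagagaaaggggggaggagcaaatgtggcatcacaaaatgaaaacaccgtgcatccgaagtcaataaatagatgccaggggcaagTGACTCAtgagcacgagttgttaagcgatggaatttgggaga
Trem2, chr17:48346151-48346450, plus strand: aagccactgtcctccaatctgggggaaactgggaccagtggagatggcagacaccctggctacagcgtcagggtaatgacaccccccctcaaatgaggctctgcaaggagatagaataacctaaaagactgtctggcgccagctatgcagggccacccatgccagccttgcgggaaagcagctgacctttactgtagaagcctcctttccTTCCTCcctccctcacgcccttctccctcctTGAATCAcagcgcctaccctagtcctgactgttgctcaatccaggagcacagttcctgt
Ms4a7, chr19:11334646-11334945, minus strand: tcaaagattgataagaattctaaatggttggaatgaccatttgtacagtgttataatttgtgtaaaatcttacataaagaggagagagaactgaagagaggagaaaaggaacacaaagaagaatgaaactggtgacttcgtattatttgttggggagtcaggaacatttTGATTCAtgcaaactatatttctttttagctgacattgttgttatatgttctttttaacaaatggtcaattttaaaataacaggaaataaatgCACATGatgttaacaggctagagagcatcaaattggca
Apoe, chr7:19699139-19699438, minus strand: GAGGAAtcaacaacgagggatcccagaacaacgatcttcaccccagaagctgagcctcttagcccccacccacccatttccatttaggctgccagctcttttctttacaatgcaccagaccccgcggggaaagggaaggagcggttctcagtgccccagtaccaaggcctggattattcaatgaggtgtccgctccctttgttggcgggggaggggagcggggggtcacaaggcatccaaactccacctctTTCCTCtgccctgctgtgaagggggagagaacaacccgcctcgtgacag
TGANTCA occurred in 3 of the 8 windows, once each in those printed for Gpnmb (first base 9 bases into the transcript), Trem2 (9 bases before the start) and Ms4a7. Of all 32851 RefSeq mouse windows of this length, 7.81% held it. GAGGAA or its reverse complement occurred in 4 of the 8 windows, against 28.3% of all windows. CATGTG or its reverse complement occurred in 1 of the 8 (Ms4a7), against 14.2%, and CACGTG in 0 of the 8, against 7.15%. The Lgals3 window held none of the 4 motifs. The 8 windows come from 5 genes, and the Apoe windows starting at 19698572 and 19698349 overlap, so they do not count as separate promoters. The matches to TGANTCA differed in their middle base: TGACTCA for Gpnmb, TGAATCA for Trem2 and TGATTCA for Ms4a7. Whether each is an AP-1 site was not tested. A match describes the letters in the window and does not show binding.

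At day 4, with Treg cells present, all 9 genes were lower with AREG than with PBS on every array. The groups did not overlap for 9 of 9 genes, against 12% of all genes whose AREG arrays all lay below the PBS arrays. By limma (a moderated linear model fitted over all 19752 genes and adjusted by Benjamini-Hochberg at 0.05), 8 of the 9 fell, against 2.11% of all genes called lower (0.79% were called higher and 2.9% in either direction), a count from which nothing is read since the choice of genes leaned on this comparison. The log2 changes of the 9 ranged from -2.0 to -0.92 with a median of -1.33, against a median of 0.04 over all genes. In counts here and below, genes that fell or rose are those called by limma at an adjusted p under 0.05. The calls rested on single arrays: without AREG replicate 1, AREG replicate 3 or PBS replicate 2 of day 4, 0 of the 9 passed, while the changes of the 9 genes stayed between -2.32 and -0.83 in all 12 fits that left out 1 array. Of 13 genes of regenerating fibres and myoblasts, 12 were below 0 with AREG at day 4 and limma called 5 lower (median -1.01). Their part in the result was not tested. The mean of 11 fibroblast and fibro-adipogenic progenitor genes lay between 10.02 and 10.23 with AREG at day 4 and between 10.35 and 10.55 with PBS, and 1 of them fell and 1 rose. Adipocyte genes were higher, with 2 of 10 called, a median change of 0.53, and means between 8.22 and 8.58 with AREG and between 7.72 and 8.12 with PBS. Of 10 endothelial genes limma called 0 (3 had an unadjusted p under 0.05), with a median change of 0.30. The part of these lists was not tested either.

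Gpnmb had the widest range of the 9 over the arrays, 3.34 on the log2 scale. It stood at 8.85, 9.37 and 8.25 with AREG at day 4, against 10.19, 10.93 and 11.35 with PBS. At day 8 it stood at 8.77, 8.19 and 8.02 with AREG, against 9.75, 9.03 and 10.33 with PBS. The AREG arrays lay below the PBS arrays on both days, and the PBS arrays of day 8 overlapped those of day 4. Gpnmb fell 4.0-fold with AREG at day 4 (log2 change -2.0 ± 0.34, SE, n = 3 per group, limma adjusted p = 0.0198). At day 8 the change was -1.38 ± 0.34 (adjusted p = 0.599) and did not pass.

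Of the receptor pair, Trem2 had log2 intensities of 7.94, 8.44 and 7.73 with AREG at day 4, against 8.99, 9.35 and 9.23 with PBS. At day 8 the values were 7.72, 7.62 and 7.09 with AREG, against 7.92, 7.93 and 8.58 with PBS. AREG and PBS did not overlap on either day, and all 3 PBS arrays of day 8 lay below all 3 of day 4. The adaptor Tyrobp stood at 8.15, 8.99 and 8.64 with AREG at day 4, against 9.70, 10.12 and 9.95 with PBS. At day 8 it stood at 9.997, 9.27 and 8.15 with AREG, against 9.97, 9.57 and 10.09 with PBS. There AREG replicate 1 reached the PBS arrays and replicate 3 lay far below them. The log2 change with AREG at day 4 of Trem2 was -1.15 ± 0.22 and that of Tyrobp -1.33 ± 0.33 (SE, n = 3 per group, limma adjusted p = 0.0198 and 0.0458). The call of Tyrobp, the one nearest the threshold, was lost in 12 of 21 alternative fits.

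The scavenger receptor Msr1 had log2 intensities of 6.73, 7.11 and 6.91 with AREG at day 4, against 7.65, 8.22 and 8.57 with PBS. At day 8 these were 7.82, 7.61 and 6.97 with AREG, against 7.70, 7.50 and 8.08 with PBS. The groups were apart at day 4 and overlapped at day 8, where Msr1 had the smallest change of the 9 (-0.29 ± 0.24 on the log2 scale, adjusted p = 0.794), against -1.23 ± 0.24 at day 4 (adjusted p = 0.0218).

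Of the lipid carriers, Apoe was among the brightest genes of the array, at the 99.2 percentile of mean levels. It stood at 11.54, 11.98 and 11.64 with AREG at day 4, against 12.60, 12.74 and 12.56 with PBS. At day 8 it stood at 11.53, 11.34 and 10.86 with AREG, against 11.85, 11.81 and 12.13 with PBS. As for Trem2, AREG and PBS were apart on both days, and the PBS arrays of day 8 lay below those of day 4. Fabp5 had 7.54, 8.05 and 7.82 with AREG at day 4, against 8.69, 9.18 and 9.12 with PBS, and at day 8 it had 8.18, 7.59 and 7.25 with AREG, against 8.23, 7.99 and 8.39 with PBS. Its groups overlapped at day 8 through AREG replicate 1. A dimmer cluster named Fabp5, listed with the same transcripts, gave 7.37, 7.86 and 7.60 with AREG at day 4 against 8.43, 8.93 and 9.005 with PBS, the same order of groups. Whether either cluster also takes up RNA of near-identical Fabp5 copies is not given in the sources used here. At day 4 the log2 changes with AREG were -0.92 ± 0.17 for Apoe and -1.20 ± 0.21 for Fabp5 (SE, n = 3 per group, limma adjusted p = 0.0198 for each).

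Lgals3 had log2 intensities of 9.24, 9.56 and 8.90 with AREG at day 4, against 10.61, 10.99 and 10.89 with PBS. At day 8 they were 10.13, 9.43 and 8.69 with AREG, against 9.79, 9.72 and 10.48 with PBS. Its PBS arrays of day 8 lay just below those of day 4, and at day 8 AREG replicate 1 lay above PBS replicates 1 and 2. Lgals3 fell 3.02-fold with AREG at day 4 (-1.59 ± 0.29 on the log2 scale, adjusted p = 0.0198, limma).

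The membrane protein gene Ms4a6d stood at 7.15, 8.03 and 7.41 with AREG at day 4, against 8.93, 9.50 and 9.42 with PBS, and at day 8 at 8.70, 8.32 and 7.68 with AREG, against 8.65, 8.68 and 9.16 with PBS. It had the smallest p of the 9 at day 4 (log2 change -1.75 ± 0.26, adjusted p = 0.0111, limma). Ms4a7 stood at 7.45, 8.18 and 7.42 with AREG at day 4, against 8.86, 9.60 and 8.92 with PBS. At day 8 it stood at 9.06, 8.17 and 6.37 with AREG, against 8.67, 8.61 and 8.89 with PBS, so that the AREG arrays spread around the narrow PBS group. Ms4a7 was the gene that did not pass at day 4 (-1.44 ± 0.46, adjusted p = 0.102), and the SD of its AREG arrays at day 8, 1.37 (n = 3), was the largest of any group of these genes. Since the 4 groups share 1 estimate of the spread, that scatter enters its day 4 test as well: Ms4a7 passed at day 4 without AREG replicate 1 of day 8 (adjusted p = 0.0282) and without AREG replicate 3 of day 8 (adjusted p = 0.00286, limma).

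**Figure D1:**
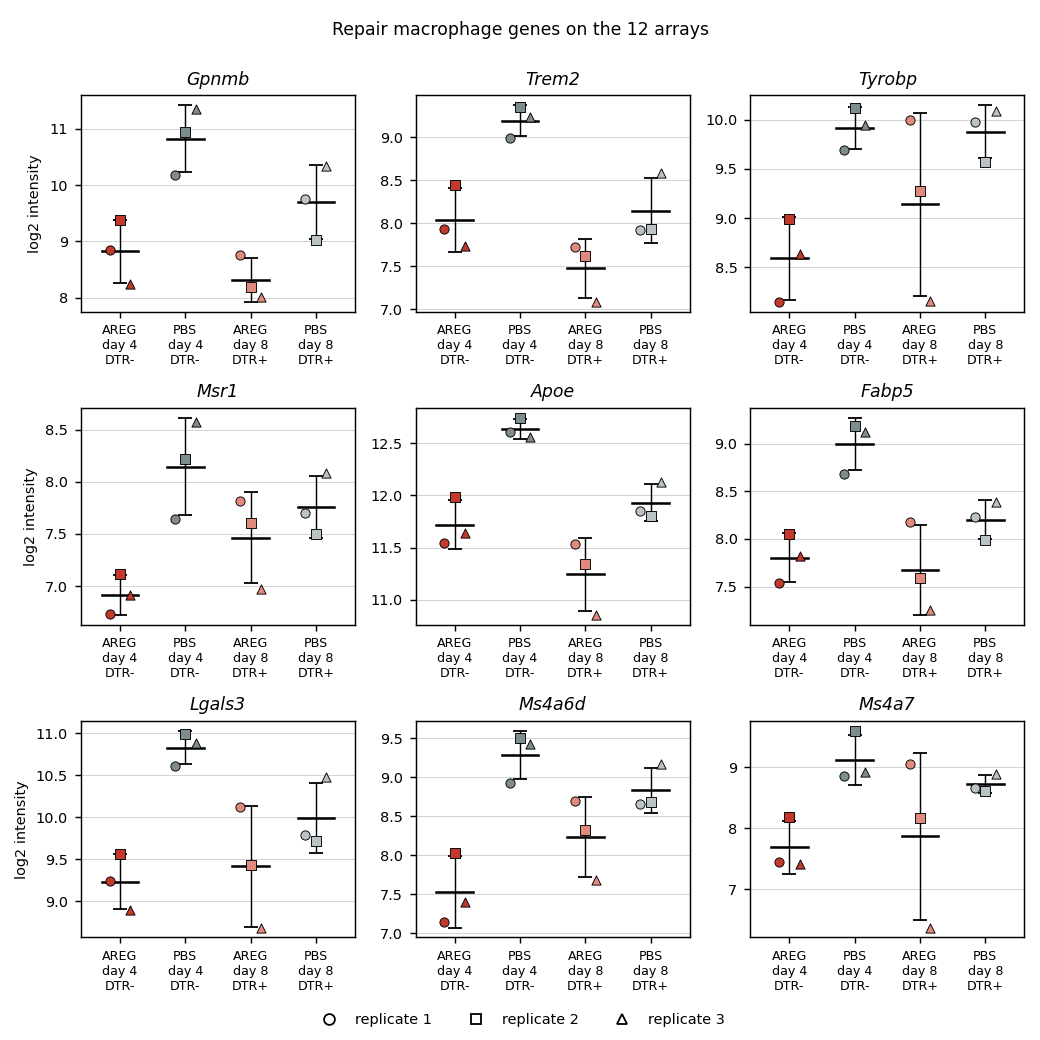
Log2 intensity (vertical axes, which differ in range and do not start at 0) of the 9 measured genes in the 4 groups; symbols are single arrays, bars the mean and whiskers the SD (n = 3). For each gene the 3 AREG arrays of day 4 lie below the 3 PBS arrays of day 4, while at day 8 AREG replicate 3 is the lowest of the 6 arrays for every gene and replicate 1 the highest of the AREG arrays.

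The arrays of a group kept a common order for these genes. AREG replicate 2 was the highest AREG array of day 4 for 9 of 9 genes, and PBS replicate 1 the lowest PBS array of day 4 for 8 of 9. At day 8 AREG replicate 3 was the lowest of all 6 arrays for 9 of 9 genes and PBS replicate 3 the highest PBS array for 9 of 9. The share of all genes with this order was not counted. The pan-macrophage mean had the same order, with AREG replicate 2 at 8.65 and PBS replicate 1 at 9.31 at day 4. At day 8 its highest PBS array was replicate 3 (9.82). The order is thus not particular to these genes. AREG replicate 3 of day 8 also had the lowest pan-macrophage mean of its day (8.20) and the lowest mean of 11 fibroblast and fibro-adipogenic progenitor genes of all arrays (9.35, against 10.08 to 10.14 on the other AREG arrays of day 8 and 10.15 to 10.24 on the PBS arrays of that day). The part of these cell types in the result was not tested.

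At day 8, in Foxp3-DTR+ mice, each of the 9 genes averaged lower with AREG than with PBS, against 48.8% of all genes, and limma called 0 of them, with 0.00506% of all genes called lower. The log2 changes ranged from -1.38 (Gpnmb) to -0.29 (Msr1) with a median of -0.67, against 0.01 over all genes. At an unadjusted p under 0.05, 6 of the 9 were lower, against 5.57% of all genes. The 20 pan-macrophage genes were alike at day 8: 20 were below 0, 8 had an unadjusted p under 0.05, and their median was -0.57. The members were chosen with earlier results of these arrays known, so these counts are a description. AREG and PBS arrays did not overlap for 3 of the 9, Gpnmb, Trem2 and Apoe, against 7.14% of all genes with AREG arrays all lower. The smallest p-values were those of Apoe (-0.69 ± 0.17) and Gpnmb, with a limma adjusted p of 0.599 for each. Without AREG replicate 3 the changes shrank to between -1.23 (Gpnmb) and -0.05 (Msr1). Without it Ms4a7 changed by -0.11 and Tyrobp by -0.25, against -0.85 and -0.74 with it, whereas Trem2 changed by -0.47 and Apoe by -0.49. AREG replicate 1 pulled the other way, as the highest AREG array of day 8 for 9 of 9 genes and for the pan-macrophage mean (9.56). Without that array the drops grew, to -1.45 for Ms4a7 and -1.17 for Tyrobp.

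The difference between the AREG effects, day 8 minus day 4, was above 0 for 9 of 9 genes, against 47.2% of all genes, meaning a smaller drop at day 8, with a median of 0.62 against -0.01 over all genes. The 20 pan-macrophage genes were alike in this, with 0 of the 20 below 0 and a median of 0.59. The day 4 change on which the members were chosen is subtracted here, so the choice itself favours values above 0, and the counts are a description from which nothing is read. Limma called 0 of the 9 and 0% of all genes, and at an unadjusted p under 0.05 4 of the 9 were above 0, against 1.78% of all genes. These were Ms4a6d (1.15 ± 0.36, adjusted p = 0.63), Msr1 (0.93 ± 0.34, adjusted p = 0.742), Lgals3 (1.02 ± 0.41, adjusted p = 0.799) and Fabp5 (0.67 ± 0.30, adjusted p = 0.82). For Apoe the difference was 0.23 ± 0.24 (adjusted p = 1.00). The PBS groups enter each AREG effect, and the test does not show that the effects were alike.

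The PBS groups were then compared, day 8 Foxp3-DTR+ against day 4 Foxp3-DTR-, a comparison of arrays without AREG that shares its PBS arrays with those above. The AREG arrays enter it through the common estimate of the spread. Trem2 and Apoe fell: Trem2 2.07-fold (log2 change -1.05 ± 0.22, adjusted p = 0.0162) and Apoe 1.63-fold (-0.71 ± 0.17, adjusted p = 0.0353, limma, n = 3 per group). These 2 of 9 stand against 1.15% of all genes called lower, 1.19% called higher and 2.34% called in either direction. Genes chosen for a large gap between AREG and PBS at day 4 tend to be high on the PBS arrays of day 4, the baseline here, so the choice favours lower values at day 8 and this count is no independent evidence. Fabp5 (-0.79 ± 0.21, adjusted p = 0.0663), Lgals3 (-0.83 ± 0.29, adjusted p = 0.197) and Gpnmb (-1.12 ± 0.34, adjusted p = 0.127) did not pass. The arrays of day 8 all lay below those of day 4 for 4 of the 9 genes, Trem2, Apoe, Fabp5 and Lgals3, against 14.2% of all genes. The remaining genes changed less: Tyrobp by -0.04 ± 0.33, Msr1 by -0.38 ± 0.24, Ms4a6d by -0.45 ± 0.26 and Ms4a7 by -0.41 ± 0.46. Leaving out single arrays ended both calls: 0 of the 9 passed without PBS replicate 2 of day 4, PBS replicate 1 of day 8 or PBS replicate 2 of day 8. Apoe alone also lost its call without PBS replicate 1 or 3 of day 4 or AREG replicate 2 of day 8, and 4 of the 9 passed without AREG replicate 3 of day 8. With the PBS groups alone in the fit 4 passed (Trem2, Apoe, Fabp5 and Lgals3).

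T cell genes moved the other way between the same PBS groups: 7 of 11 measured T cell markers rose, with a median change of 0.99 over the 11, and their mean log2 intensity was 7.27, 7.20 and 7.72 at day 8 against 6.37, 6.27 and 6.24 at day 4. Of 13 genes of regenerating fibres and myoblasts 6 fell, with a median of -1.08. The part of these changes in the values of the macrophage genes was not tested.

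**Figure D2:**
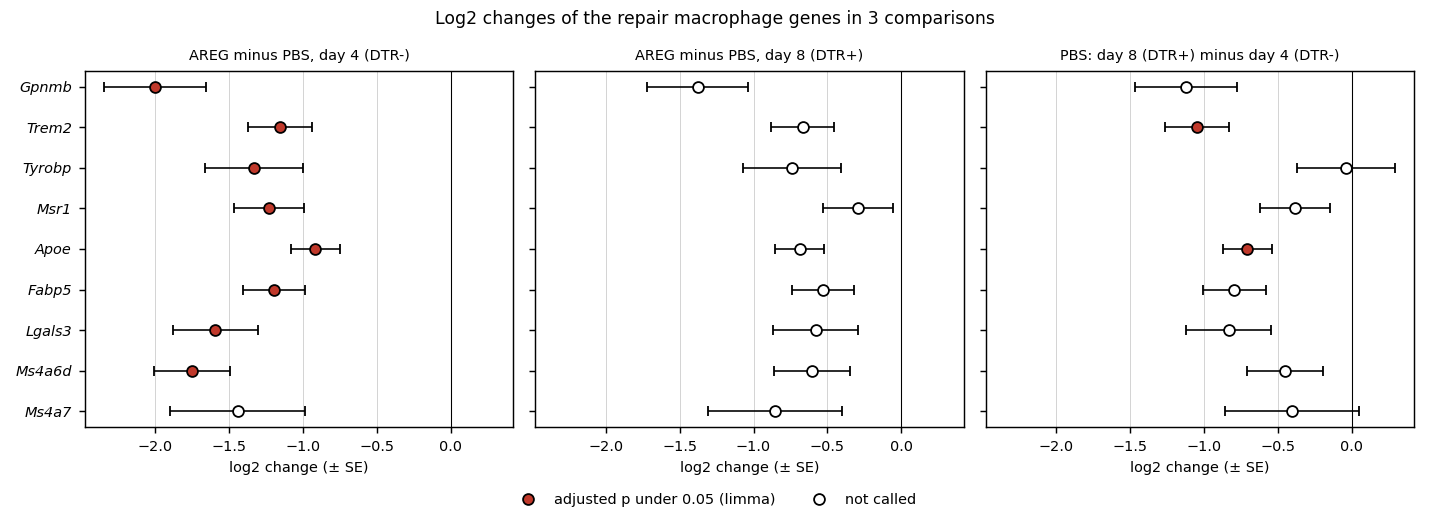
Log2 change with its SE (horizontal axis) of each of the 9 genes for AREG against PBS at day 4, AREG against PBS at day 8, and PBS at day 8 against PBS at day 4; filled points passed an adjusted p of 0.05 by limma. At day 4 the changes with AREG run from -2.0 to -0.92, and in the PBS comparison Trem2 and Apoe are filled while Tyrobp lies at -0.04.

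The order of the 4 groups split the genes. PBS at day 4 had the highest mean for 9 of 9 genes and PBS at day 8 the next, which overlapped the first for all but Trem2, Apoe, Fabp5 and Lgals3. Choosing the members on the AREG comparison of day 4 favours PBS at day 4 as the highest group. The share of all genes with this order was not counted, so nothing is read from the 9 of 9. For Gpnmb, Trem2, Apoe and Fabp5 the AREG group of day 8 was the lowest, and for Tyrobp, Msr1, Lgals3, Ms4a6d and Ms4a7, 5 of the 9, the AREG group of day 4 was. Between the AREG groups, day 8 against day 4, the arrays did not overlap for Trem2 (means differing by -0.56 on the log2 scale) and Apoe (-0.48), both lower at day 8, that is 2 of the 9 against 8.97% of all genes with the day 8 arrays all lower. They overlapped for Ms4a6d (0.70), Tyrobp (0.55) and Msr1 (0.55), whose means were higher at day 8. PBS at day 8 and the group next below it overlapped for all 9 genes.

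The members were also set against the 20 pan-macrophage genes, none of which is among them. These 20 genes changed with AREG at day 4 by between -1.56 (Ctss) and -0.69 (Cd14), with a mean of -1.15. All 20 were below 0, and limma called 12 of the 20 lower. Gpnmb, Ms4a6d and Lgals3 had larger drops than any of the 20, while the changes of Trem2, Tyrobp, Msr1, Apoe, Fabp5 and Ms4a7 lay within their range. This is the comparison the members were chosen on. With AREG at day 8 the 20 genes changed by between -0.80 (Laptm5) and -0.11 (Aif1), with a mean of -0.54. There Gpnmb and Ms4a7 lay below the range, and the other members, Ms4a6d and Lgals3 among them, within it. Between the PBS groups, day 8 against day 4, the 20 genes changed by between -0.62 (Clec4d) and 0.42 (Adgre1) with a mean of -0.03, and limma called 0 (1 gene had an unadjusted p under 0.05). There 5 of the 9 members, Gpnmb, Trem2, Apoe, Fabp5 and Lgals3, lay below the lowest of the 20, and Tyrobp, Msr1, Ms4a6d and Ms4a7 within their range. The choice of members favours lower values between the PBS groups as well, since genes chosen this way tend to be high on the PBS arrays of day 4. The share of all genes below these ranges was not counted. These placements are descriptions with no test, and nothing is read from their counts.

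**Figure D3:**
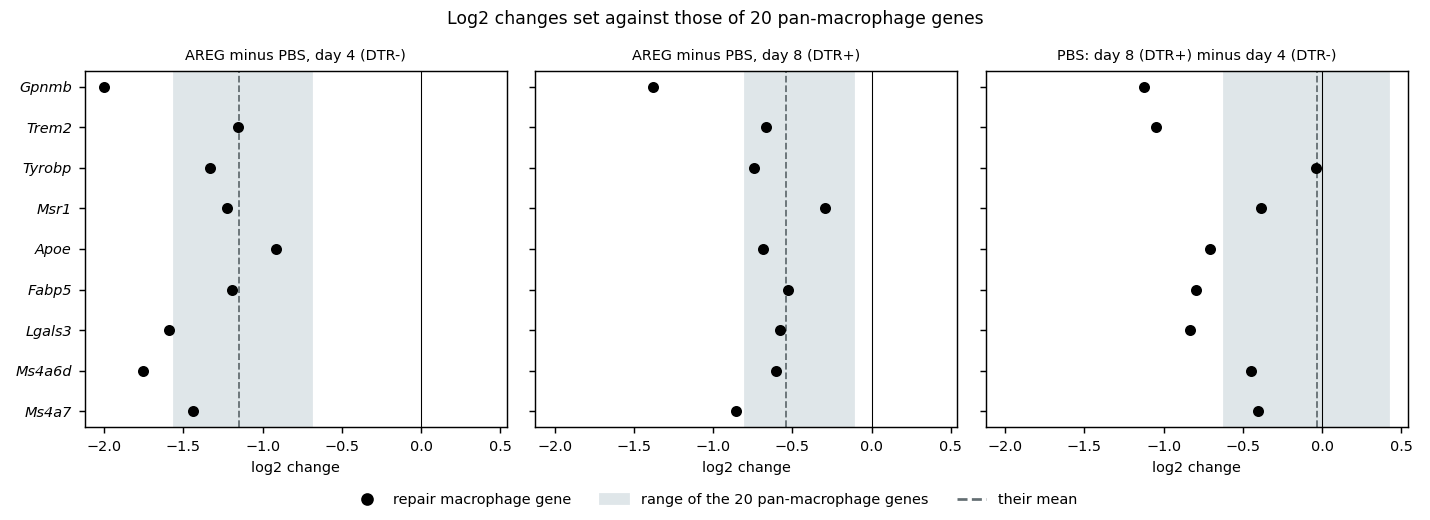
Log2 change (horizontal axis) of the 9 genes as points, with the range of the 20 pan-macrophage genes as a grey band and their mean as a dashed line, for the same 3 comparisons. In the PBS comparison the band spans -0.62 to 0.42 and Gpnmb, Trem2, Apoe, Fabp5 and Lgals3 lie to its left. The choice of members favours lower values in that comparison.

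The same was read array by array, as the log2 intensity of a gene minus the mean of the 20 pan-macrophage genes on that array. The size of such a value has no meaning between genes, only its change between arrays. The list holds genes that other leukocytes also make, such as Cd53. Between the PBS groups T cell markers rose (median 0.99), as did 1 of 10 dendritic cell genes, Clec9a (1.48 ± 0.29, list median 0.09). The reference may therefore not follow macrophages alone, and the part of other cells in it was not tested. Trem2 gave -0.28, -0.20 and -0.55 with AREG at day 4, against -0.31, -0.32 and -0.38 with PBS, a difference of means of -0.01. At day 8 it gave -1.84, -1.50 and -1.11 with AREG, against -1.47, -1.36 and -1.24 with PBS, so that all 6 arrays of day 8 lay below all 6 of day 4, with or without AREG. Apoe and Fabp5 did the same, which makes 3 of the 9 genes against 0.597% of all genes in this measure. This description was chosen after the values had been seen. The pan-macrophage mean was 8.20 on AREG replicate 3 of day 8 and 9.31 to 9.67 on the PBS arrays of day 4. A gene of even intensity is thus higher on that day 8 array in this measure and cannot be part of the 0.597%. The share is low for this reason and is no baseline for macrophage genes, so nothing is read from the count. Apoe was at 3.33, 3.33 and 3.36 with AREG at day 4, against 3.29, 3.07 and 2.95 with PBS, and at day 8 at 1.97, 2.22 and 2.66 with AREG, against 2.47, 2.51 and 2.31 with PBS. Relative to macrophage genes Apoe was thus higher with AREG at day 4 by 0.23, although its intensity fell. The mean of the 20 pan-macrophage genes itself changed by -1.15 there, so any gene that fell by less rises in this measure. The AREG and PBS arrays of day 4 did not overlap for Apoe in this measure. The share of all genes that did the same was not counted, so nothing is read from it.

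Gpnmb, Ms4a6d and Lgals3 kept a lower relative level with AREG at day 4. Their drops were the largest among the members in that comparison, on which the members were chosen, so nothing is read from this. The share of all genes without overlap in this measure was not counted. Gpnmb was at 0.63, 0.73 and -0.03 with AREG against 0.88, 1.27 and 1.74 with PBS, Ms4a6d at -1.07, -0.61 and -0.87 against -0.38, -0.17 and -0.19, and Lgals3 at 1.03, 0.91 and 0.62 against 1.30, 1.32 and 1.28. At day 8 the relative difference with AREG was -0.84 for Gpnmb, with arrays that overlapped, -0.06 for Ms4a6d and -0.04 for Lgals3. Tyrobp changed little in this measure in any comparison, by -0.18 with AREG at day 4, -0.20 with AREG at day 8 and -0.01 between the PBS groups, and its groups overlapped each time.

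**Figure D4:**
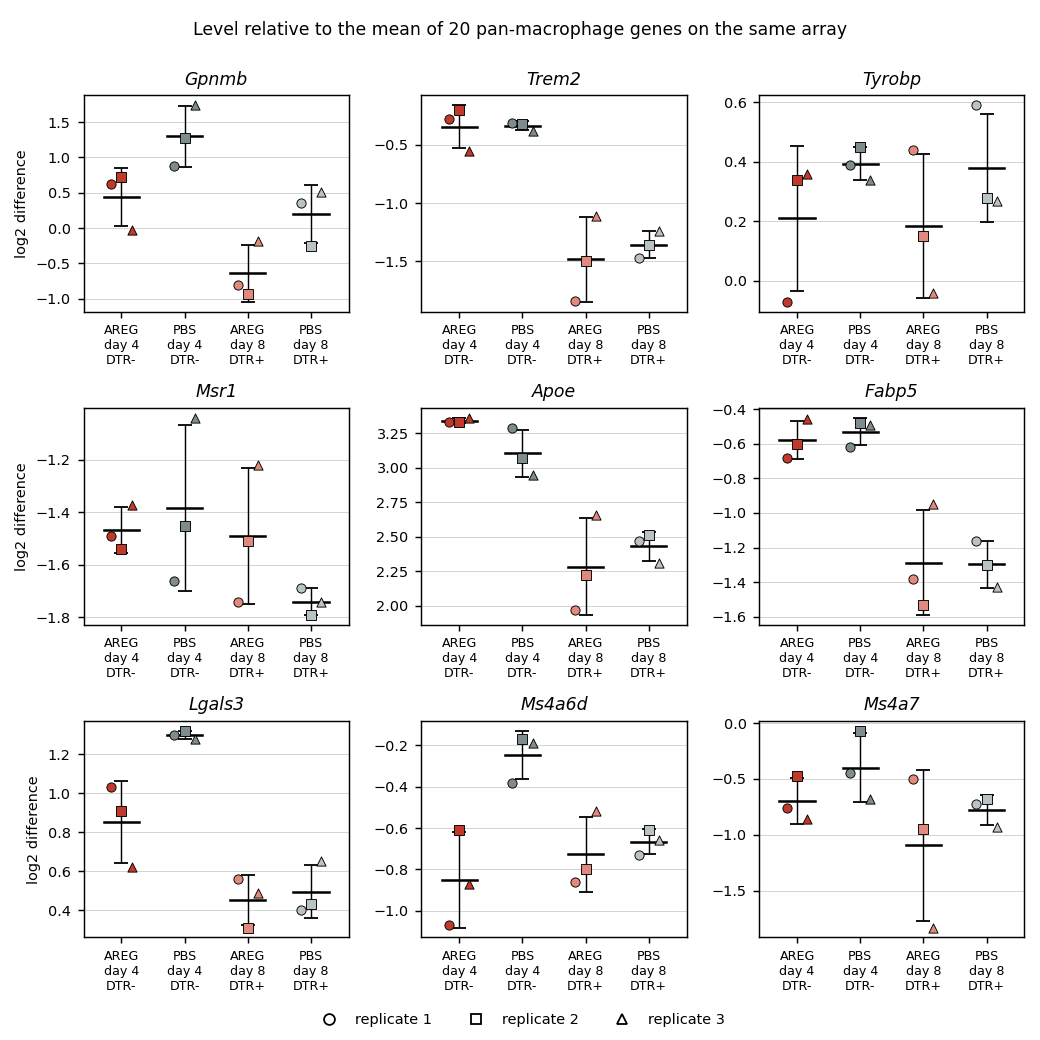
Log2 intensity minus the mean of the 20 pan-macrophage genes on the same array (vertical axes, which differ in range) for the 9 genes in the 4 groups; symbols are single arrays, bars the mean and whiskers the SD (n = 3). For Trem2, Apoe and Fabp5 all 6 arrays of day 8 lie below all 6 of day 4, and for Gpnmb, Lgals3 and Ms4a6d the AREG arrays of day 4 lie below the PBS arrays of day 4. The AREG comparison of day 4 is the one the members were chosen on.

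Since TREM2 signals through TYROBP, the receptor was also set directly against its adaptor, a comparison chosen after the values had been seen. The log2 intensity of Trem2 minus that of Tyrobp was -2.06, -1.64 and -1.51 in the PBS arrays of day 8, against -0.70, -0.77 and -0.71 in those of day 4. The means differed by -1.01 and the groups did not overlap (two-sided exact permutation test, p = 0.1, the smallest that 3 against 3 arrays can give). In the AREG arrays of day 4 it was -0.21, -0.54 and -0.91, against -0.70, -0.77 and -0.71 with PBS, and the groups overlapped (difference 0.18, exact permutation p = 0.5). With AREG at day 8 the difference from PBS was 0.07 (exact permutation p = 1.00). These 3 tests were not adjusted, and an exact design of this size cannot go below 0.1. The -1.01 restates the changes of Trem2 and Tyrobp between the PBS groups given above, so its p-value is no independent evidence.

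Among the 9 genes, the closest pair by pattern was Apoe and Trem2, whose centred log2 profiles over the 12 arrays differed by a root mean square of 0.19, followed by Fabp5 and Apoe (0.193). The least alike were Tyrobp and Gpnmb (0.752). Among 9485 named genes at or above the median level, Cd68, a lysosomal protein of macrophages, was nearest to the mean profile of the members (0.096, against a median of 0.679 over those genes). Next came the lysosomal protease Lgmn (0.145), Myof (0.146), the complement receptor C3ar1 (0.157) and lysosomal acid lipase Lipa (0.181), then Gpr137b-ps, Tm6sf1, the RNA sensor Tlr7, Apobec1 and progranulin (Grn), at 0.20 to 0.206. For single genes, Tyrobp was nearest to the leukocyte genes Nckap1l (0.169), Cd84 (0.183) and Cd53 (0.185), and Msr1 to the integrin Itgam (0.137). Apoe was nearest to Ppib (0.122), a prolyl isomerase of the endoplasmic reticulum, and Loxl3 (0.135), a lysyl oxidase, neither of them a macrophage marker. Gpnmb was nearest to Atp6v0d2 (0.479), a subunit of the vacuolar proton pump, at a larger distance than any other gene had to its own nearest.

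Genes of the same pathways and families were taken from lists, some of which share genes (Stab1, Cd68, Cd63, Lipa, Mmp12 and Atp6v0d2 are each in at least 2). Their counts with AREG at day 4 stand beside 2.11% of all genes called lower, 0.79% called higher and 40.9% with a change below 0. Between the PBS groups these shares of calls were 1.15% lower and 1.19% higher. Counts of a few genes say little about a list. In the list of TREM2 and TYROBP signalling, 24 of 26 measured genes were below 0 with AREG at day 4, with a median of -0.44, and 4 fell: the receptors Cd300lb (-0.76 ± 0.13) and Clec5a (-1.07 ± 0.22), both of which pair with TYROBP, the adaptor Lat2 (-0.81 ± 0.19) and the lipid phosphatase Inpp5d (-0.79 ± 0.19). The kinase Syk (-0.51 ± 0.19, adjusted p = 0.158) and the phospholipase Plcg2 (-0.52 ± 0.18, adjusted p = 0.14) did not pass. Between the PBS groups the list's median was -0.05 and limma called 0 genes (2 at an unadjusted p under 0.05).

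In the list of lysosomal lipid and cholesterol handling (25 measured), 6 genes fell with AREG at day 4 and 1 rose, with a median of -0.11. Those that fell were lysosomal acid lipase Lipa (-1.26 ± 0.29), the cholesterol exporters Abcg1 (-0.93 ± 0.21) and Abca1 (-0.61 ± 0.15), the hexosaminidase subunit Hexa (-0.83 ± 0.16), the phospholipase Pla2g15 (-0.55 ± 0.13) and the apolipoprotein E receptor Lrp1 (-0.57 ± 0.15). Vldlr, another receptor of that family, rose (0.86 ± 0.21, adjusted p = 0.0446). The lipase Lpl (0.45 ± 0.21) and the fatty acid transporter Cd36 (0.54 ± 0.22), which muscle, endothelium and fat also make, did not pass. Among 12 other fatty acid and retinoid binding proteins limma called 0 with AREG at day 4 (4 at an unadjusted p under 0.05), and the adipocyte and endothelial Fabp4 changed by 0.49 ± 0.14 (adjusted p = 0.0812), opposite in sign to Fabp5.

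In the MS4A family 3 of 14 measured genes fell with AREG at day 4, Ms4a4a (-1.21 ± 0.23), Ms4a6b (-1.12 ± 0.29) and Ms4a6c (-1.39 ± 0.35), and the family's median was -0.02. The last 2 are close relatives of Ms4a6d, and whether their probes share sequence was not tested. Between the PBS groups Ms4a4a fell (-1.28 ± 0.23) and Ms4a4d (0.61 ± 0.15) and the T cell gene Ms4a4b (2.60 ± 0.34) rose. Among 17 scavenger receptor genes Stab1 (-0.92 ± 0.17) and Cd68 (-1.42 ± 0.29) fell with AREG at day 4, and the median was -0.17. Among 10 galectin genes 5 were below 0 with AREG at day 4, and limma called 0 lower. The adipocyte galectin Lgals12 rose (0.93 ± 0.19), while Lgals1, which many cell types make, changed by -0.48 ± 0.17 (adjusted p = 0.142).

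In the list of efferocytosis (the uptake of dead cells), 2 of 30 measured genes fell with AREG at day 4, Stab1 and the bridging protein Thbs1 (-0.97 ± 0.19), with 26 of 30 below 0 and a median of -0.30. The receptor Mertk changed by -0.68 ± 0.22 (adjusted p = 0.112). Between the PBS groups Stab1 (-1.05 ± 0.17), Thbs1 (-0.89 ± 0.19) and Megf10 (-0.59 ± 0.14), a phagocytic receptor that satellite cells also make, fell. Of 15 receptors and relatives of osteopontin, the protein made from Spp1, 2 fell with AREG at day 4: Cd44 (-1.21 ± 0.23) and the fibronectin receptor subunit Itga5 (-0.75 ± 0.17).

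In the list of MITF-family factors and lysosomal or osteoclast-like genes, 7 of 22 measured genes fell with AREG at day 4, with a median of -0.53: Cd63, Mmp12, Ctsz, Grn, Ctsb, Acp5 and Atp6v0d2. The largest change in it was that of Atp6v0d2 (-2.11 ± 0.53) and the smallest p that of the lysosomal tetraspanin Cd63 (-0.84 ± 0.13, adjusted p = 0.0168). The factors Mitf (0.07 ± 0.15), Tfeb (0.29 ± 0.12), Tfe3 (-0.29 ± 0.14) and Tfec (-0.55 ± 0.20) did not pass. In the list of companions of lipid-associated macrophages, 9 of 27 fell with AREG at day 4, with a median of -0.65, among them the chemokines Ccl3 (-1.68 ± 0.37) and Ccl6 (-1.20 ± 0.24). In that list Cd63 fell between the PBS groups (-0.68 ± 0.13, adjusted p = 0.0113). The gene called in these lists with AREG at day 8 was the macrophage elastase Mmp12 (-2.06 ± 0.28, adjusted p = 0.0482), which also fell at day 4 (-1.52 ± 0.28).

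**Figure D5:**
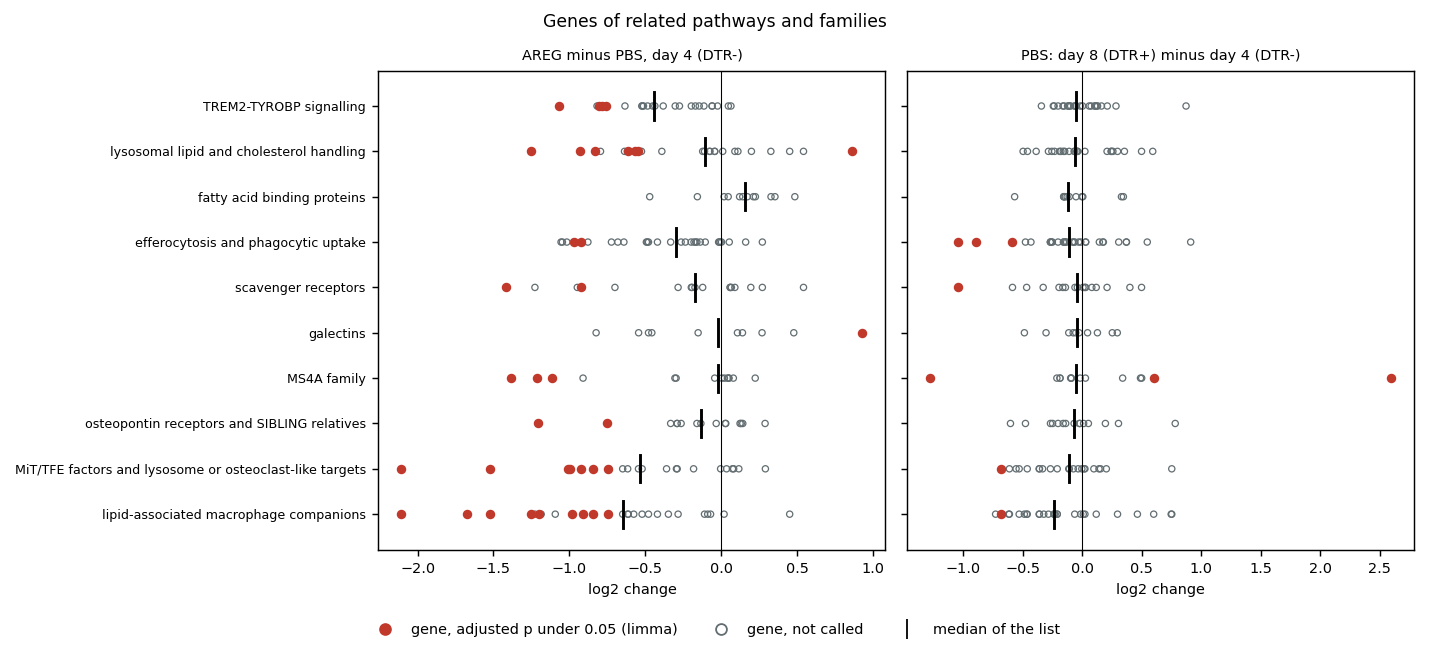
Log2 change (horizontal axes, which differ in range) of each measured gene in 10 lists of related pathways and families, for AREG against PBS at day 4 and for PBS at day 8 against PBS at day 4; filled points passed an adjusted p of 0.05 by limma and black bars are list medians. With AREG at day 4 the medians run from -0.65 to 0.16, and between the PBS groups from -0.24 to -0.04.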

How the data were processed

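Whole muscle RNA was measured on 12 Mouse Gene 1.0 ST arrays (Affymetrix) in 4 groups of 3, taken from the sample titles. The authors ran RMA with Affymetrix Power Tools, per the submitters' processing notes; RMA corrects background, equalises array distributions and summarises probes, and can compress differences of dim genes. Tool versions were not given in the sources used. The deposited intensity values are on a linear scale from 4.65 to 21512.5, with array medians of 133.7 to 143.2, and were taken to log2 without pseudocount or filter. Gene names came from the array's gene table (21425 of 24922 clusters with 1 symbol), and symbols were checked by Entrez number against RefSeq (19677 of 19752 genes matched, 0 changed).

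Limma 3.58.1 in R 4.3.3 fitted 4 group means to all 19752 genes with 8 residual and 7.1 prior degrees of freedom (lmFit, eBayes, two-sided, Benjamini-Hochberg at 0.05), and was tested on simulated data. Members and lists were chosen with earlier results of these data known. Named besides the members were, per list, up to 4 genes with the smallest p with AREG at day 4 and all genes called in either AREG comparison where these were 6 or fewer, and for likeness the 10 nearest to the mean profile and up to 3 per member, at or above the median level, leaving out ribosomal, predicted and Rik genes; other genes, such as Syk, Mitf or Lpl, were named for their role after the values had been seen, as was the set of values relative to macrophage genes. Residuals of same-numbered AREG and PBS arrays correlated at 0.558, 0.201 and 0.511 at day 4, which meets the criterion used for pairing (each above 0.1), and at -0.198, 0.123 and -0.003 at day 8, which does not. At day 4 the unlike-numbered AREG replicate 2 and PBS replicate 3 also correlated, at 0.27, and the other unlike-numbered arrays at -0.486 to -0.013. Whether the numbers mark pairs is not stated in the labels, and the main fit does not use them. With the replicate number as a block, 914 genes passed with AREG at day 4, against 573 without it, and 8 of the 9 members in each fit. The 9 alternatives and the 12 fits that leave out an array are described at the end.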

Additional observations from a re-analysis of the deposited data

How the results depend on the processing

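The 9 members were lower with AREG at day 4 and at day 8 under all 21 alternatives, and the number called varied. With AREG at day 4, where 573 genes and 8 members passed, the genes numbered 914 with the replicate block, 938 with only the groups of the comparison, 5305 with array quality weights and 358 with a pseudocount of 32; leaving out 1 array gave 9 to 1336 genes and 0 to 9 members. At day 8, where 1 gene and 0 members passed, 0 genes passed with the replicate block, with only its groups, with trend and robust options, after quantile normalisation or median centring, with the pseudocount, with the filter at the median level and with the mean of clusters; array quality weights gave 1192 genes and 3 members, and leaving out 1 array 0 to 1 genes. Between the PBS groups, where 463 genes and 2 members passed, only those groups gave 759 genes and 4 members, array quality weights 1649 genes and 5 members and the pseudocount 1 member; leaving out 1 array gave 209 to 719 genes and 0 to 4 members. The replicate block gave 3 members there and 0 genes for the difference of the AREG effects, where the main count was 0; array quality weights gave 2232 genes and 5 members for it. In the weighted fit AREG replicate 3 of day 4 (weight 5.52) and AREG replicate 2 of day 8 (7.43) carried most of their groups. Of the members' values, 3 changed sign, none of them called: Tyrobp between the PBS groups, at -0.04, ranged from -0.15 to 0.11 when 1 array was left out (0.06 without PBS replicate 2 of day 4), and Ms4a7 in the difference of the AREG effects from -0.01 to 1.34. Of 189 alternative values with AREG at day 4, 33 lost a call and 4 gained one; between the PBS groups 10 lost and 11 gained one. The cause was not tested.

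Signal over background was not analysed here, and an effect too small for 3 arrays per group would not have been called.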
